A study of Rattus norvegicus with 84 samples.

Results

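The transport, storage and release of iron were followed through 9 genes in 3 tissues of the rat: kidney, liver and the gastrocnemius, a calf muscle. All animals were male and of the outbred Sprague Dawley stock. The 9 genes were chosen by name from the 17502 loci of the tables, and each matched 1 locus. They are Tfrc, Slc11a2, Tf and Hfe (uptake and its control), Fth1 and Ftl1 (storage), and Slc40a1, Cp and Hamp (export and its control). The 84 libraries formed 3 groups per tissue: young (vehicle, tissue taken at 6 months, n = 10), aged (vehicle, 24 months, n = 10) and treated (RAD001, 24 months, n = 8). Vehicle was a diluted microemulsion with methylcellulose, begun at 4.5 months in the young group and at 22.5 months in the aged group, which took it by mouth each day for 6 weeks. The treated group began at 22.5 months as well and had RAD001 instead of vehicle on 1 day of each week, 7 doses in total. RAD001 is everolimus, an inhibitor of the growth-controlling kinase complex mTORC1. The labels name no engineered allele in any group.

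Iron travels in blood bound to transferrin, enters cells through the transferrin receptor, and crosses the endosomal membrane through the transporter encoded by Slc11a2. Ferritin shells of heavy and light chains hold the surplus. Ferroportin, encoded by Slc40a1, is the only known cellular iron exporter, ceruloplasmin oxidises the iron that leaves, and the liver hormone hepcidin, encoded by Hamp, removes ferroportin from the cell surface. In mammals iron regulatory proteins bind hairpins in several of these transcripts: they stabilise Tfrc RNA and block translation of ferritin and ferroportin when cells are short of iron, so ferritin and ferroportin RNA need not follow their proteins.

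Levels below are read coverage per base of a locus, scaled between libraries. This unit was read from loci of up to 130 bp. Whether longer loci were divided by gene span or by transcript length is not stated and was not tested. Comparisons of level between different genes, and the ratio of the ferritin chains, carry that limit. Changes are differences of log2(scaled coverage + 0.1), a scale that understates changes of low genes, and every adjusted p comes from limma with Benjamini-Hochberg adjustment over all loci tested. A gene rose or fell where the adjusted p was under 0.05. Relative depth, read from the step size of the coverage, spanned 0.807 to 1.38 over the 84 libraries, and 11697 to 13767 loci were above 0 in a library. The labels do not say that libraries came from separate rats, and each p-value reflects only how these libraries vary, which may be technical. Libraries expressed the markers of their labelled tissue: the summed level of 10 muscle fibre markers was at least 3638 in every gastrocnemius library, that of 10 hepatocyte markers at least 4142 in every liver library, and that of 10 proximal tubule markers at least 263 in every kidney library. In the treated kidneys the muscle fibre sum ranged from 0.0977 to 9.91, against at most 0.125 in the other kidneys.

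The proximal promoters of Hamp, Tfrc and Cp are shown because, of the 9 genes, these 3 gave the largest changes in liver after RAD001, in muscle with age and in kidney with age. Each sequence is the 250 bases before the RefSeq transcription start in the rat assembly GRCr8, 5′ to 3′ on the gene's own strand. Capitals mark every match on either strand to GGCGCC (the core of the BMP response element through which SMAD proteins drive the human hepcidin gene), TTCNNNGAA (a STAT site), TTNNGNAA (a C/EBP site) and ACGTG (the core of the hypoxia response element).
Hamp: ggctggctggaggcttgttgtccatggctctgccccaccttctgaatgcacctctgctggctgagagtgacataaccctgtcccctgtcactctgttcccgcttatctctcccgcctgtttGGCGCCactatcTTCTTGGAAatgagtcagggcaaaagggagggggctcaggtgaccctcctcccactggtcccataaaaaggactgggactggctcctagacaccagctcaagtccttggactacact
Tfrc: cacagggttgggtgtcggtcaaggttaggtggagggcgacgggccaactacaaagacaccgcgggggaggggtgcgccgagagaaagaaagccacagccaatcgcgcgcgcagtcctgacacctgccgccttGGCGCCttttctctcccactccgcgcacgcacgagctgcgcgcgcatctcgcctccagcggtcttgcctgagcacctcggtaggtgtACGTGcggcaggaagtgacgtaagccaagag
Cp: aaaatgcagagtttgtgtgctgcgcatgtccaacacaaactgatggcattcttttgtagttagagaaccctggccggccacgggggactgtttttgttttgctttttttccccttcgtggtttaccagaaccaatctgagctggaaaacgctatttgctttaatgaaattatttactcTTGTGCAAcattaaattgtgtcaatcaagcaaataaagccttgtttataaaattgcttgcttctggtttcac
In rn5, the assembly of the deposited tables, the loci themselves are Tfrc at chr11:74479840-74502561, Slc40a1 at chr9:52560180-52578109, Hamp at chr1:90523533-90525473, Ftl1 at chr1:102527135-102528980, Tf at chr8:111085983-111112688 and Slc11a2 at chr7:139837653-139870637 on the minus strand, and Fth1 at chr1:232979121-232981410, Hfe at chr17:45515736-45523531 and Cp at chr2:124467561-124524030 on the plus strand. In GRCr8 the Hamp promoter lies at chr1:95300272-95300521 on the minus strand, that of Tfrc at chr11:81690319-81690568 on the minus strand and that of Cp at chr2:104368420-104368669 on the plus strand. Counting the last base before the start as -1, Hamp held a GGCGCC that began at -129 and a STAT-type match that began at -117. Tfrc held a GGCGCC at -118 and an ACGTG at -31, and Cp held a C/EBP-type match at -72. Among 33469 promoters of this length, GGCGCC occurred in 8.69%, the STAT letters in 7.67%, the C/EBP letters in 37.19% and ACGTG in 16.57%. A match describes the letters only, and binding was not measured. The promoter table matched 6 of the 9 genes; of the others it held, Tf had 1 C/EBP-type match and Slc40a1 and Slc11a2 had no match to these letters.

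The young vehicle libraries, scaled jointly over 30 libraries, gave the level of each gene in each tissue. Tf, the blood iron carrier, was the most abundant of the 9 in liver, at 954 ± 119 (SD, n = 10), against 2.87 ± 0.783 in kidney and 1.44 ± 0.142 in gastrocnemius. Cp followed the same order, with 67.1 ± 13.4 in liver, 2.24 ± 0.252 in kidney and 0.799 ± 0.2201 in gastrocnemius. Both are secreted by hepatocytes, and for each gene no 2 tissues overlapped.

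Hamp was measurable in liver alone, at 39.3 ± 11.4, from 16.6 to 58.0. It was at 0 in 7 of 10 young kidney libraries, with 0.0371 in the highest, and at 0 in 6 of 10 young gastrocnemius libraries, with 0.0405 in the highest. Slc40a1 was also highest in liver, at 1.76 ± 0.2202, then kidney at 0.670 ± 0.0592 and gastrocnemius at 0.162 ± 0.0335, again without overlap. Hfe, a partner of the transferrin receptors in iron sensing, stood at 1.97 ± 0.192 in liver, 0.118 ± 0.0299 in gastrocnemius and 0.0706 ± 0.0141 in kidney.

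The uptake genes Tfrc and Slc11a2 had other orders. Tfrc was highest in gastrocnemius, at 7.40 ± 1.29 with a range of 5.58 to 10.2, which was 5.94-fold the liver mean of 1.245 ± 0.357 and 7.71-fold the kidney mean of 0.960 ± 0.1001. Slc11a2, the divalent metal transporter that moves iron across endosomal and apical membranes, was highest in kidney at 1.97 ± 0.279, against 0.456 ± 0.0494 in gastrocnemius and 0.369 ± 0.0316 in liver. Liver and kidney overlapped for Tfrc, and gastrocnemius and liver overlapped for Slc11a2.

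The 2 ferritin chains were distributed differently. Fth1, the chain with ferroxidase activity, was abundant everywhere, with 56.6 ± 3.89 in kidney, 45.3 ± 3.95 in gastrocnemius and 31.0 ± 3.12 in liver. Ftl1, the light chain that aids mineral formation, reached 10.2 ± 1.45 in kidney and 9.598 ± 2.21 in liver but 0.739 ± 0.154 in gastrocnemius, a level 13.9-fold below kidney and 13.0-fold below liver. RefSeq lists 5 pseudogenes and 1 coding copy named after Fth1 and 15 pseudogenes and 6 coding copies named after Ftl1. Reads that match several copies could have been split or dropped, so ferritin levels are uncertain to that extent.

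**Figure D1:**
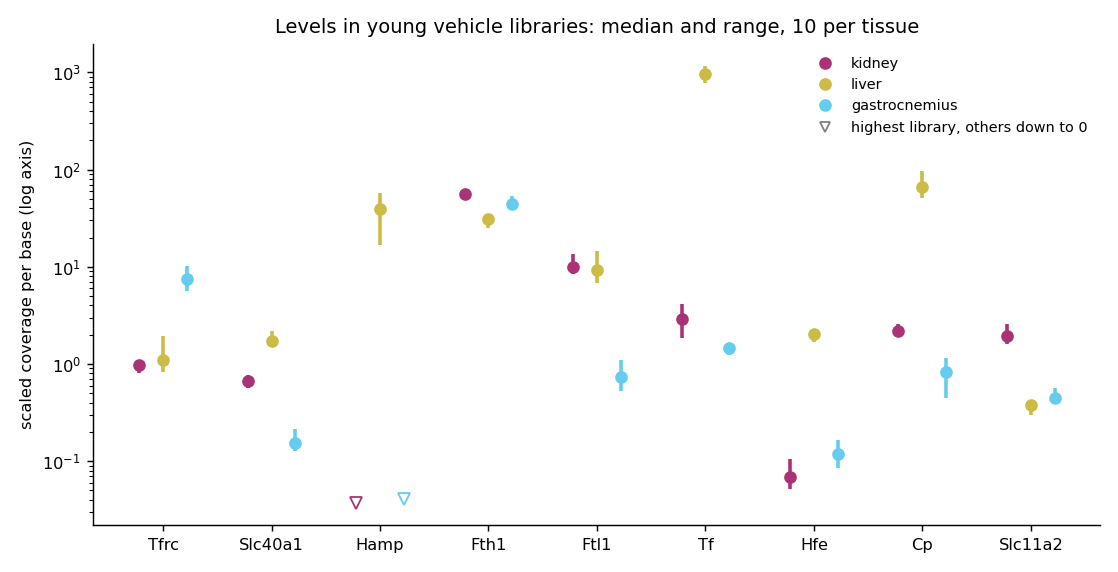
Levels of the 9 genes in young vehicle libraries. The vertical axis is scaled coverage per base on a log axis; points are medians and bars the range of 10 libraries per tissue, and open triangles mark the highest library where others were at 0. Tf in liver stands at the top, and Tfrc is highest and Ftl1 lowest in gastrocnemius.

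Young kidney and young liver differed for 8 of the 9 genes, where 79.9% of the 10761 loci tested differed. Fth1 and Slc11a2 were higher in kidney, 6 genes were higher in liver, and Ftl1 was not called (log2 difference kidney minus liver 0.11 ± 0.11 SE, adjusted p = 0.340). Ftl1 was called higher in kidney with scaling on loci of at least 1 (0.29, adjusted p = 0.0149), with upper-quartile scaling (0.43, adjusted p = 0.000622) and as deposited (0.88, adjusted p = 7.61e-09). The lower Tfrc in kidney than liver (-0.31, adjusted p = 0.0134) turned to 0.41 in the values as deposited and was not called with scaling on loci of at least 1 (-0.15) or upper-quartile scaling (-0.013). Young gastrocnemius differed from young kidney for 8 of the 9 (background 85.6%) and from young liver for all 9 (background 85.9%). Of these, Slc11a2 in gastrocnemius against liver (0.24) was not called with scaling on loci of at least 1 (0.018, adjusted p = 0.826) or as deposited (0.15, adjusted p = 0.0715). Hamp was not called between gastrocnemius and kidney (0.03 ± 0.13 SE, adjusted p = 0.833), and its differences from liver, -8.46 for kidney and -8.43 for gastrocnemius on the log2 scale, are set by the added 0.1. Hamp passed the filter of this joint fit through the liver libraries alone. Its calls against liver are included in the counts above but are no test of that difference. Hfe in gastrocnemius against kidney (0.34) was not called with scaling on loci of at least 1 (0.13, adjusted p = 0.0814). It turned to -0.074 in the values as deposited, also not called (adjusted p = 0.369), so the order of Hfe between these tissues depends on the scaling.

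Of the 9 genes, age changed the muscle transferrin receptor most. Tfrc in gastrocnemius ran from 4.70 to 8.59 with a median of 6.22 in young libraries and from 0.893 to 2.28 with a median of 1.61 in aged libraries, so every aged library lay below every young one. The means were 6.22 ± 1.08 (SD, n = 10) and 1.58 ± 0.413 (SD, n = 10). On the log2 scale Tfrc fell by 1.94 ± 0.13 SE (adjusted p = 2.58e-12). In whole tissue, fewer cells of a type and less RNA per cell cannot be told apart. Each of the 28 libraries could be left out without loss of this call.

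In the same muscles the ferritin chains moved in opposite directions. Ftl1 ran from 0.439 to 0.926 (median 0.615) in young and from 0.801 to 1.58 (median 1.13) in aged libraries, with some overlap, and rose by 0.76 ± 0.12 SE on the log2 scale (adjusted p = 1.13e-05). Fth1 fell from 38.1 ± 3.31 to 32.7 ± 2.57 (-0.22 ± 0.06 SE, adjusted p = 0.00302). The ratio of Fth1 to Ftl1 coverage was 63.2 ± 11.3 in young, 30.7 ± 8.66 in aged and 31.5 ± 7.82 in treated gastrocnemius. In kidney the ratio was 5.59 ± 0.587, 6.14 ± 0.908 and 7.57 ± 0.863 in the same order, and in liver 3.33 ± 0.502, 4.03 ± 0.458 and 5.30 ± 0.831. These ratios are given without a test. The fall of Fth1 with age was not called in the values as deposited (-0.06, adjusted p = 0.643), in which the median of all loci moved by 0.13; relative to that median Fth1 stood at -0.18.

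The export genes Slc40a1 and Cp and the carrier gene Tf also shifted with age in muscle. Slc40a1 rose from 0.136 ± 0.0280 to 0.188 ± 0.0422 (0.28 ± 0.08 SE, adjusted p = 0.00606), Cp rose from 0.672 ± 0.185 to 0.964 ± 0.196 (0.48 ± 0.13 SE, adjusted p = 0.00527), and Tf rose from 1.21 ± 0.119 to 1.45 ± 0.158 (0.25 ± 0.08 SE, adjusted p = 0.0112). Each of these overlapped between the groups. Slc11a2 (-0.12, adjusted p = 0.0674) and Hfe (-0.12, adjusted p = 0.335) were not called, and Hamp was below the filter on low values. In all, 4 of the 8 genes tested rose where 16.2% of 8836 loci rose, and 2 fell where 19.2% fell. The median change of the 8 was 0.07, against -0.00 over all loci. Slc40a1 is also a gene of iron-recycling macrophages: of the 14 macrophage markers listed, 9 were tested and 8 rose. Their sum was 8.75 to 10.7 in young, 12.1 to 15.4 in aged and 7.82 to 19.5 in treated gastrocnemius, with Marco and Clec4f at 0 in all young libraries and Clec4f at 0 in all aged ones. The part of macrophages in the Slc40a1 change was not tested.

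**Figure D2:**
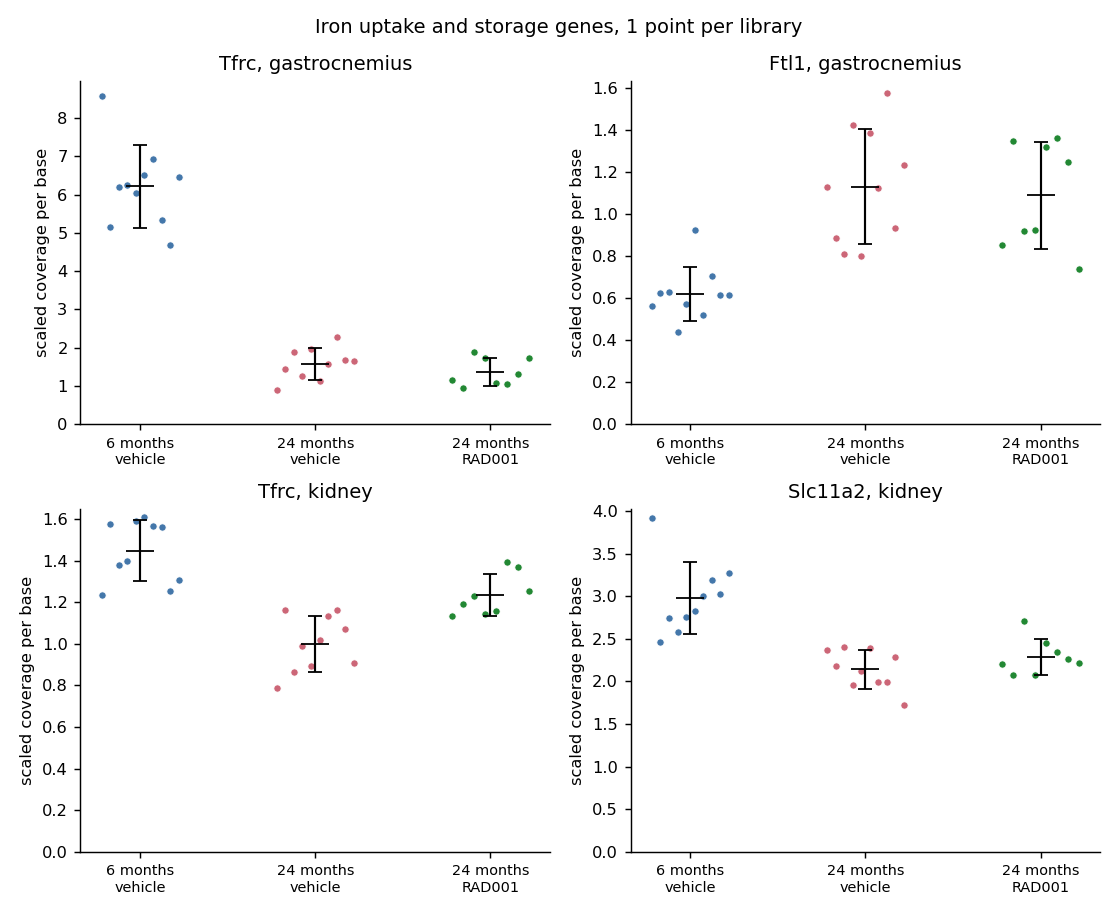
Tfrc and Ftl1 in gastrocnemius and Tfrc and Slc11a2 in kidney. The vertical axis is scaled coverage per base, each point is 1 library, and black bars give the mean and SD of each group. Aged gastrocnemius libraries lie between 0.893 and 2.28 for Tfrc, all below the young ones, and the aged kidneys lie below the young kidneys for both genes.

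Aged kidney had less Tfrc and Slc11a2 RNA and more Cp RNA. Tfrc ran from 1.24 to 1.61 (median 1.48) in young and from 0.786 to 1.16 (median 1.004) in aged kidneys, without overlap, and fell by 0.50 ± 0.06 SE on the log2 scale (adjusted p = 1.13e-06). Slc11a2 ran from 2.46 to 3.92 (median 2.92) in young and from 1.72 to 2.41 (median 2.15) in aged kidneys, again without overlap, and fell by 0.45 ± 0.07 SE (adjusted p = 7.16e-06). Cp ran from 2.90 to 3.92 (median 3.28) in young and from 4.45 to 14.5 (median 9.10) in aged kidneys. Every aged library lay above every young one, and Cp rose by 1.27 ± 0.17 SE (adjusted p = 1.40e-06). This was the largest change with age in kidney among the 8 of the 9 chosen genes that were tested. The aged kidneys were also more spread out, with an SD of 3.43 against 0.391.

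Tf rose in aged kidney from 4.33 ± 1.18 to 7.21 ± 2.35 (0.70 ± 0.19 SE, adjusted p = 0.00316), and Hfe rose from 0.107 ± 0.0213 to 0.216 ± 0.0601 (0.59 ± 0.11 SE, adjusted p = 7.88e-05). Ftl1 fell from 15.4 ± 2.19 to 13.0 ± 1.45 (-0.24 ± 0.08 SE, adjusted p = 0.0129), a call that was not made with scaling on loci of at least 1 (-0.11, adjusted p = 0.231), in the values as deposited (-0.16, adjusted p = 0.133) or with upper-quartile scaling (-0.15, adjusted p = 0.1004). Slc40a1 (0.15, adjusted p = 0.0526) lay at the threshold: it was called in 6 of the 28 fits that left out 1 library and with each other scaling tried. Fth1 was not called (-0.12, adjusted p = 0.145). Thus 3 of the 8 genes tested rose where 18.8% of 10447 loci rose, and 3 fell where 25.1% fell, with a median change of 0.02 against -0.02 over all loci.

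Markers of other cell types moved in the same kidneys. Of 10 proximal tubule markers, the segment in which Slc11a2 is abundant, all were tested and 9 fell with age; their sum was 571 to 797 in young, 263 to 585 in aged and 430 to 558 in treated kidneys, and none was at 0. Of 14 macrophage markers, 9 were tested and 9 rose; their sum was 14.2 to 23.9 in young, 24.9 to 70.1 in aged and 21.3 to 40.8 in treated kidneys, with Marco and Vsig4 at 0 in all treated ones. Of 12 acute phase genes, 4 were tested and 3 rose, with sums of 0.633 to 4.37, 1.12 to 7.32 and 0.965 to 1.77. The part of these cells in the changes of Slc11a2, Tfrc and Cp was not tested.

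In aged liver the exporter and its ferroxidase were higher. Slc40a1 ran from 1.30 to 1.87 (median 1.51) in young and from 1.69 to 2.63 (median 2.12) in aged livers and rose by 0.49 ± 0.08 SE on the log2 scale (adjusted p = 3.60e-05). Cp ran from 44.0 to 83.5 (median 57.4) in young and from 51.6 to 122 (median 93.5) in aged livers and rose by 0.65 ± 0.15 SE (adjusted p = 0.00209). Both genes overlapped between the groups. Fth1 rose from 27.1 ± 2.70 to 33.1 ± 4.39 (0.28 ± 0.08 SE, adjusted p = 0.00950), and Hfe fell from 1.72 ± 0.164 to 1.32 ± 0.232 (-0.36 ± 0.08 SE, adjusted p = 0.00225).

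Hamp did not pass the test with age in liver. It ran from 14.4 to 50.3 (median 34.6) in young and from 13.6 to 51.0 (median 38.3) in aged livers, a change of 0.06 with a 95% interval of -0.36 to 0.47 (adjusted p = 0.893). Tfrc (0.20, adjusted p = 0.362), Tf (0.17, adjusted p = 0.148), Slc11a2 (0.05, adjusted p = 0.671) and Ftl1 (-0.00, adjusted p = 0.990) were not called either. In liver 3 of the 9 genes rose where 7.93% of 8991 loci rose, and 1 fell where 8.68% fell, with a median change of 0.17 against 0.00 over all loci. Of 14 macrophage markers, which include those of the Kupffer cells that recycle red cell iron, 13 were tested and 6 rose; their sum was 20.9 to 32.1 in young, 25.3 to 43.5 in aged and 30.1 to 43.0 in treated livers, with no marker at 0 in a whole group. Of 10 erythroid markers, 5 were tested and 3 rose, all globins, with sums of 43.6 to 62.9, 50.7 to 103 and 65.8 to 152. Their part in the changes of Slc40a1 and Fth1 was not tested.

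The age changes differed between tissues for most genes in a joint fit of all 84 libraries, which tested 7647 loci and left out Hamp. Kidney and liver differed for 7 of 8 genes, where 25.1% of loci differed. The kidney change was lower than the liver change for Tfrc (-0.70), Slc11a2 (-0.50), Fth1 (-0.40) and Slc40a1 (-0.34), and higher for Hfe (0.96), Cp (0.62) and Tf (0.52). Hfe rose in kidney and fell in liver. Slc40a1 was not called with scaling on loci of at least 1 (-0.26, adjusted p = 0.0608), nor Cp as deposited (0.64, adjusted p = 0.0523). Gastrocnemius and kidney differed for 6 of 8 (background 30.2%), with Tfrc at -1.44 ± 0.17 SE and Ftl1 at 1.001 ± 0.15 SE for gastrocnemius minus kidney. Of the 6, Tf (-0.45, adjusted p = 0.0487) was not called as deposited (-0.38, adjusted p = 0.166) or with pseudocount 0.01 (-0.44, adjusted p = 0.0605). Gastrocnemius and liver differed for 3 of 8 (background 24.7%): Tfrc at -2.14 ± 0.17 SE, Fth1 at -0.50 ± 0.09 SE and Ftl1 at 0.76 ± 0.15 SE.

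RAD001 was compared with vehicle at 24 months. This comparison shares the aged vehicle libraries with the comparison of ages, so the values of both are given side by side and no relation between them is drawn. In liver, Hamp ran from 13.6 to 51.0 (median 38.3) in aged and from 41.5 to 71.6 (median 49.7) in treated libraries. No treated library was below 41.5, a level that 4 of the 10 aged libraries exceeded. The mean went from 36.4 ± 12.1 (SD, n = 10) to 54.4 ± 11.7 (SD, n = 8), and Hamp rose by 0.64 ± 0.21 SE on the log2 scale (adjusted p = 0.0398). With the replicate number as a block the value was 0.57 (adjusted p = 0.0593), and with no filter on low values the adjusted p was 0.0665. The call was also lost without any 1 of aged replicates 4, 6, 7 and 8 or treated replicates 1, 2, 6 and 7, and the adjusted p over all such fits was 0.0207 to 0.0775, with changes of 0.50 to 0.71. The deposited 7SL coverage, a non-coding RNA described with the kidneys, was 21113 to 23314 in treated and 11951 to 24614 in aged livers, and with it as a covariate Hamp stood at 0.43 (adjusted p = 0.170).

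Slc40a1 fell in the treated livers, from 2.21 ± 0.306 to 1.69 ± 0.213 (-0.37 ± 0.08 SE, adjusted p = 0.00631); it ran from 1.69 to 2.63 in aged and from 1.403 to 2.00 in treated livers. Tfrc fell from 1.26 ± 0.299 to 0.895 ± 0.208 (-0.44 ± 0.15 SE, adjusted p = 0.0431), a call lost in 12 of the 28 fits that left out 1 library, with adjusted p of 0.0164 to 0.0827 over all of them. That call was also lost with scaling on loci of at least 1 (adjusted p = 0.0660), where Fth1 was called instead (0.23, adjusted p = 0.0471), with upper-quartile scaling (0.0613), with no filter (0.0703) and with the 7SL covariate (0.171). Fth1 (0.19, adjusted p = 0.102), Ftl1 (-0.20, adjusted p = 0.212), Slc11a2 (0.10, adjusted p = 0.306), Hfe (-0.09, adjusted p = 0.469), Tf (-0.07, adjusted p = 0.620) and Cp (0.08, adjusted p = 0.761) were not called. So 1 of the 9 genes rose where 6.98% of loci rose, and 2 fell where 8.71% fell, with a median change of -0.07 against -0.01 over all loci. Of the macrophage markers 0 of the 13 tested were called, and of the erythroid markers 1 of 5 rose. Of 12 acute phase genes, all tested in liver, 3 rose and 1 fell with age, and 2 rose and 1 fell after RAD001; their sum was 1435 to 1803 in young, 1476 to 2609 in aged and 1646 to 2985 in treated livers. Hamp and Cp also respond to inflammation, and the part of such a response was not tested.

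**Figure D3:**
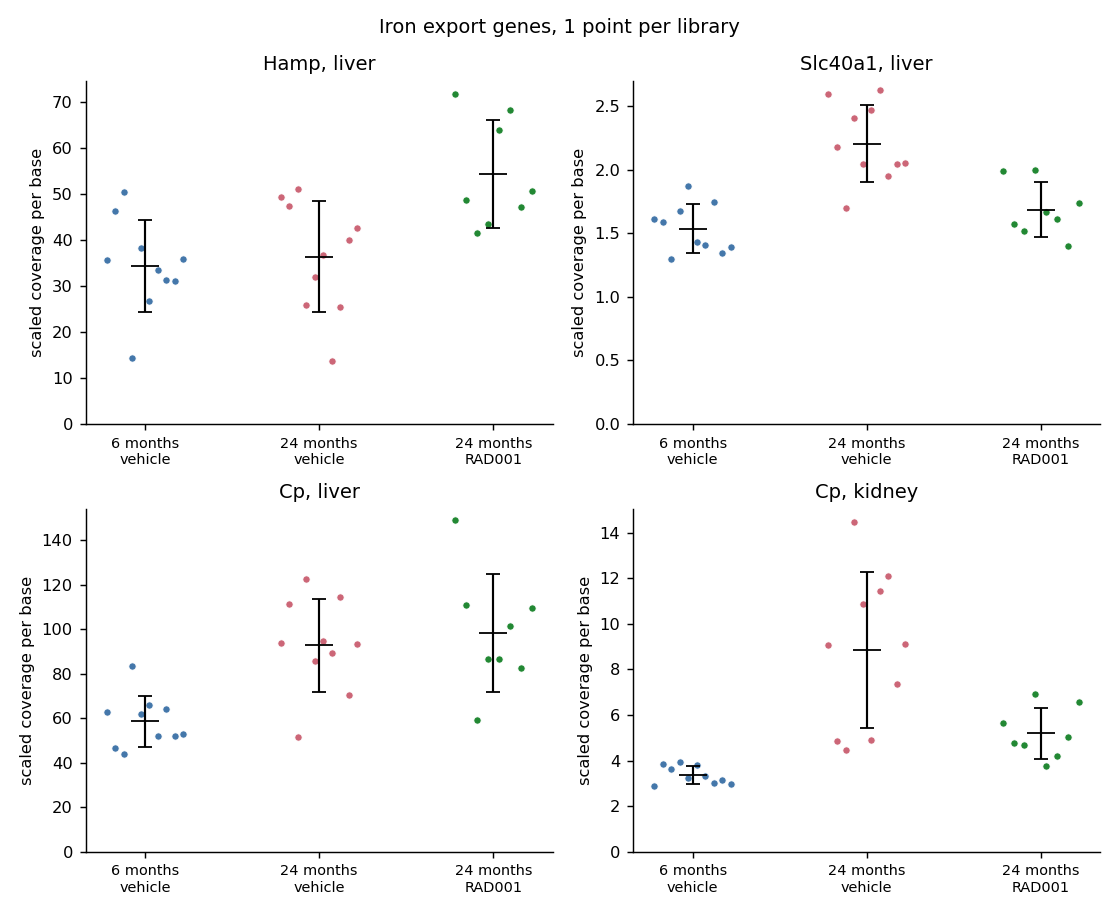
Hamp, Slc40a1 and Cp in liver and Cp in kidney. The vertical axis is scaled coverage per base, each point is 1 library, and black bars give the mean and SD of each group. Treated livers lie at 41.5 or above for Hamp and at 2.00 or below for Slc40a1, and aged kidneys spread from 4.45 to 14.5 for Cp.

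Genes that act on hepcidin in the liver were read from the wider pathway list; these names were chosen after their values were seen. Tfr2, the second transferrin receptor and an iron sensor of hepatocytes, rose after RAD001 from 6.36 ± 1.24 to 7.95 ± 1.06 (0.33 ± 0.10 SE, adjusted p = 0.0241). Atoh8, a transcription factor gene that responds to BMP signals, rose by 0.41 ± 0.13 SE (adjusted p = 0.0276), and Smad1, which relays BMP signals, rose by 0.19 ± 0.07 SE (adjusted p = 0.0439). Smad7 (0.27, adjusted p = 0.109), Smad6 (0.35, adjusted p = 0.107), Bmp6 (0.18, adjusted p = 0.22), Bmp2 (0.23, adjusted p = 0.0921) and Id1 (0.03, adjusted p = 0.943) of the same pathway were not called. Nor were the coreceptor gene Hfe2 (-0.04, adjusted p = 0.764) and Tmprss6 (0.02, adjusted p = 0.932), whose protease cleaves that coreceptor. The call of Smad1 was lost with the replicate block (0.17, adjusted p = 0.0695) and as deposited (0.16, adjusted p = 0.111). It was lost as well with no filter (adjusted p = 0.0571) and with only the 2 groups compared (adjusted p = 0.0613). With 1 library left out, the call of Smad1 was lost in 9 of 28 fits, that of Atoh8 in 4 of 28 and that of Tfr2 in 3 of 28. With the 7SL covariate Tfr2 (adjusted p = 0.0971), Atoh8 (0.112) and Smad1 (0.132) were not called.

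In treated kidneys Fth1 ran from 84.6 to 107 (median 96.4), against 59.9 to 92.9 (median 79.7) in aged ones, and rose by 0.31 ± 0.07 SE on the log2 scale (adjusted p = 0.000967). Tfrc rose from 0.999 ± 0.134 to 1.23 ± 0.101 (0.29 ± 0.07 SE, adjusted p = 0.00189), with 1.13 to 1.395 in treated libraries. Cp fell from 8.86 ± 3.43 to 5.20 ± 1.11 (-0.68 ± 0.18 SE, adjusted p = 0.00397), with 3.75 to 6.92 in treated libraries, and treated and aged libraries overlapped for all 3 genes. Hfe (-0.24, adjusted p = 0.106), Tf (-0.39, adjusted p = 0.120), Slc40a1 (0.12, adjusted p = 0.164), Slc11a2 (0.09, adjusted p = 0.315) and Ftl1 (-0.00, adjusted p = 0.996) were not called. Of the 8 genes tested 2 rose where 20.6% of loci rose, and 1 fell where 17.6% fell, with a median change of 0.05 against 0.02 over all loci. With scaling on loci of at least 1, Tf (-0.50, adjusted p = 0.0458) and Hfe (-0.31, adjusted p = 0.0414) were called as falls as well.

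The treated kidneys also differed in the level of 7SL RNA, the non-coding RNA of the signal recognition particle, at chr6:101136543-101136842 of rn5. Its deposited coverage was 33651 ± 3931 (SD, n = 8) in treated and 25258 ± 2573 (SD, n = 10) in aged kidneys, with ranges of 27814 to 40949 and 22243 to 30427. With the 7SL level as a covariate 0 of the 8 genes were called: Tfrc stood at 0.33 (adjusted p = 0.0818), Fth1 at 0.15 (adjusted p = 0.408) and Cp at -0.44 (adjusted p = 0.388). Because 7SL and treatment moved together, their parts cannot be told apart in these kidneys. Of the macrophage markers 7 of 9 fell with RAD001, of the proximal tubule markers 6 of 10 rose, of the acute phase genes 2 of 4 fell, and of the erythroid markers 5 of 6 tested rose, with an erythroid sum of 47.8 to 152 in aged and 93.3 to 174 in treated kidneys. Their part in the changes of Fth1, Tfrc and Cp was not tested.

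In gastrocnemius 0 of the 8 genes tested were called with limma after RAD001, where 1.49% of loci rose and 1.67% fell. At an unadjusted p under 0.05 there was 1, Slc40a1, which stood at 0.139 ± 0.0224 in treated and 0.188 ± 0.0422 in aged muscles (-0.26 ± 0.08 SE, adjusted p = 0.0790); without aged replicate 2 its adjusted p was 0.0349. Tfrc ran from 0.947 to 1.89 (median 1.23) in treated muscles, a change of -0.20 with a 95% interval of -0.49 to 0.10 (adjusted p = 0.452). For Ftl1 the interval was -0.31 to 0.22, and for Cp -0.26 to 0.32. The median change of the 8 was -0.02 against -0.00 over all loci.

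**Figure D4:**
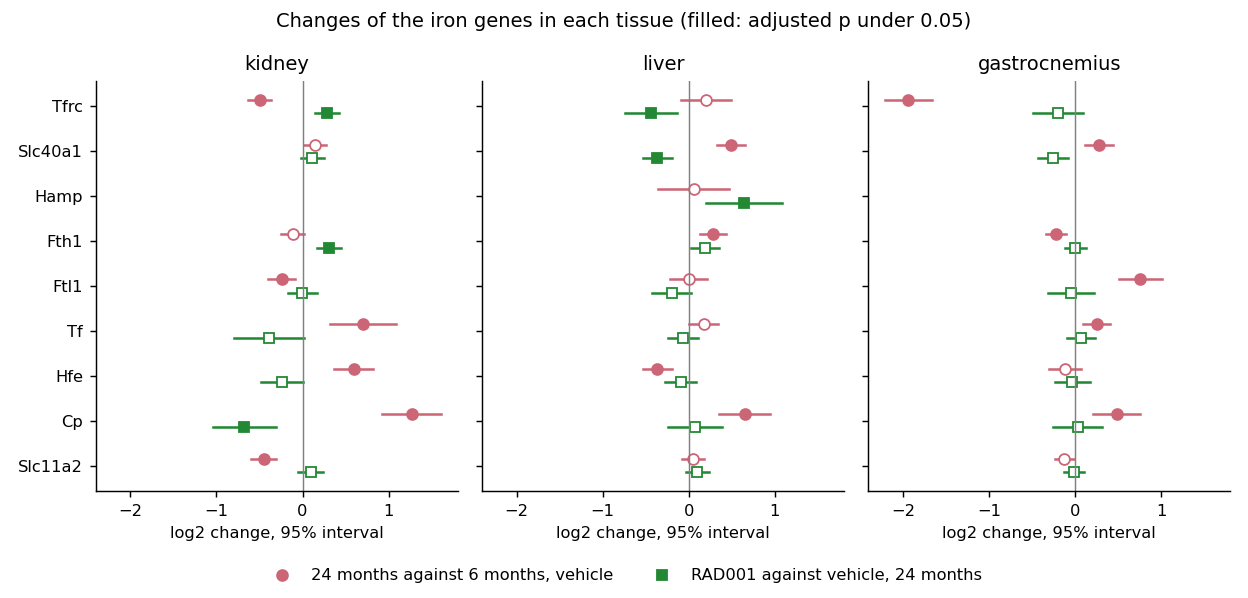
Log2 changes of the 9 genes in kidney, liver and gastrocnemius. The horizontal axis is the log2 change with its 95% interval; circles compare 24 with 6 months on vehicle, squares compare RAD001 with vehicle at 24 months, and filled symbols have an adjusted p under 0.05. Tfrc in gastrocnemius with age (-1.94) and Cp in kidney with age (1.27) lie farthest from 0, and Hamp has values in liver alone.

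The RAD001 changes of kidney and liver differed for 3 of 8 genes, where 29.1% of loci differed: Tfrc (0.73), Slc40a1 (0.48) and Cp (-0.75), for kidney minus liver. Tfrc rose in treated kidney and fell in treated liver, but with the 7SL covariate in limma neither was called (adjusted p = 0.0818 and 0.171). The differences between tissues were not fitted with that covariate. Gastrocnemius and kidney differed for 4 of 8 (background 24.9%): Tfrc (-0.48), Slc40a1 (-0.37), Fth1 (-0.31) and Cp (0.71), for gastrocnemius minus kidney. Tfrc and Fth1 were not called with scaling on loci of at least 1 (-0.36 and -0.17), upper-quartile scaling (-0.40 and -0.22) or as deposited (-0.50 and -0.32), and Slc40a1 was not called with the first of these (-0.26). Tf (0.46, adjusted p = 0.0652) was called with scaling on loci of at least 1 (0.59, adjusted p = 0.0186) and upper-quartile scaling (0.54, adjusted p = 0.0333). For gastrocnemius against liver 0 of 8 were called with limma (background 7.44%), and at an unadjusted p under 0.05 there was also 0. The widest 95% interval of those differences was that of Cp, which reached 0.46 on either side of -0.05.

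Treated aged libraries were also set against the young ones, which share no library with them. In kidney 7 of 8 genes differed, where 26.4% of loci differed. Slc11a2 (-0.36), Tfrc (-0.21) and Ftl1 (-0.24) were lower and Cp (0.59), Hfe (0.36), Slc40a1 (0.26) and Fth1 (0.19) higher in treated than young kidneys, and Tf was not called (0.31, adjusted p = 0.263). Without treated replicate 5, 4 of the 8 were called. In liver 4 of 9 differed (background 35.3%). Fth1 was 32.6 to 43.6 in treated and 22.0 to 30.6 in young livers, without overlap (0.47 ± 0.08 SE, adjusted p = 7.02e-05). Hfe was 1.01 to 1.44 against 1.49 to 1.94, also without overlap (-0.46 ± 0.09 SE, adjusted p = 0.000249), while Cp (0.72) and Hamp (0.70, adjusted p = 0.0126) were higher. With the 7SL covariate Hamp was not called (0.46, adjusted p = 0.0807), and Ftl1 was called lower (-0.30, adjusted p = 0.0313). In gastrocnemius 5 of 8 differed (background 36.5%). Tfrc stood at -2.13 ± 0.14 SE (adjusted p = 1.27e-12), with all treated libraries below all young ones, Fth1 was lower (-0.22, but -0.11 and not called with scaling on loci of at least 1, and -0.13 and not called as deposited), and Ftl1 (0.71), Cp (0.51) and Tf (0.32) were higher.

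**Figure D5:**
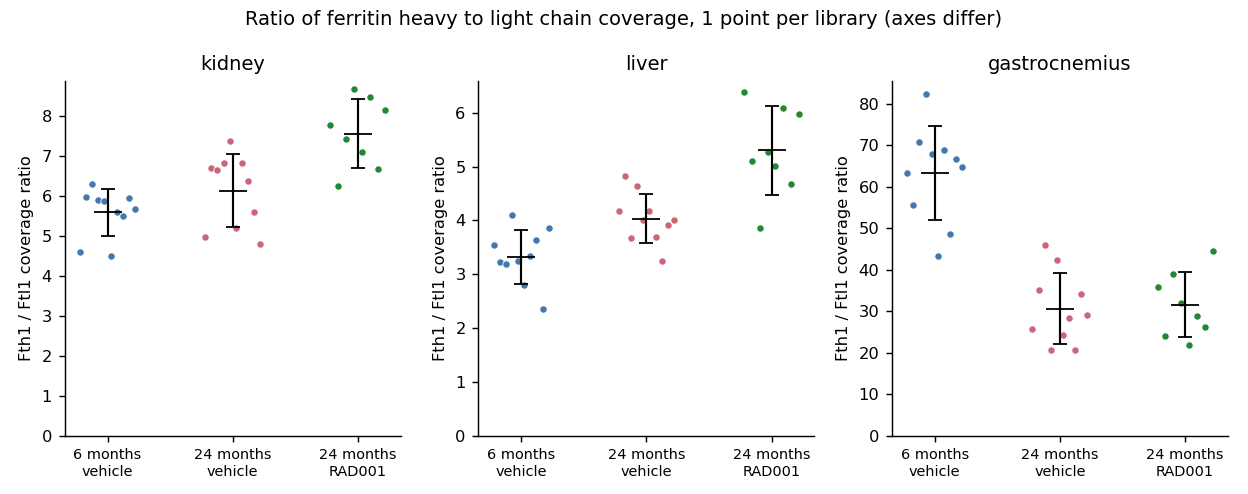
Ratio of Fth1 to Ftl1 coverage. The vertical axis is the ratio, each point is 1 library, and black bars give the mean and SD of each group; the axes differ between tissues. Young gastrocnemius libraries lie between 43.3 and 82.4, aged ones between 20.6 and 45.9.

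The wider iron pathway was read from a list of 62 other genes, 57 of which had a locus. In kidney 46 were tested. With age 9 rose and 15 fell (median -0.06 against -0.02 over all loci), where 18.8% of all loci tested rose and 25.1% fell. After RAD001, 14 rose and 8 fell (median 0.05 against 0.02), where 20.6% of all loci tested rose and 17.6% fell. With scaling on loci of at least 1 the counts with age were 14 and 9, so the balance of this list depends on the scaling. After RAD001, 14 fell with that scaling, and with the 7SL covariate 1 rose and 0 fell. Lcn2, whose protein binds iron-loaded siderophores and is made by injured tubules, had the largest rise with age, from 0.198 ± 0.0749 to 2.96 ± 2.36 (2.90 ± 0.39 SE, adjusted p = 1.85e-06). After RAD001 Lcn2 fell to 0.562 ± 0.329 (-1.86 ± 0.42 SE, adjusted p = 0.00104). Both changes rest on the same aged libraries, and Lcn2 reached a mean level of 1 through that group alone. Slc48a1, a haem transporter gene (0.12), was the only other called rise with age among genes with a mean level of at least 1. Genes below that level rose more, among them Hmox1 (0.80), Lrp1 (0.54) and Bmp6 (0.52). Blvra, a biliverdin reductase gene of haem breakdown (-0.68), Aco1, which encodes iron regulatory protein 1 (-0.55), and Nfs1, a sulfur donor of iron-sulfur cluster assembly (-0.54), fell most with age. Lrp2, the endocytic receptor megalin (0.50), Glrx5 of iron-sulfur cluster transfer (0.48) and Nfs1 (0.44) had the largest rises after RAD001 among genes with a mean level of at least 1. Epas1, the hypoxia-inducible factor 2-alpha gene (-0.30), and the BMP receptor gene Bmpr1a (-0.17) fell after RAD001 in addition to Lcn2 among genes of that level. Some genes of lower level fell more than Epas1. The call of Epas1 was lost with no filter (adjusted p = 0.0557) and in 7 of 28 fits that left out 1 library. With the 7SL covariate 0 of these 6 genes were called after RAD001, with adjusted p of 0.166 for Lcn2, 0.222 for Lrp2, 0.277 for Glrx5, 0.158 for Nfs1, 0.396 for Epas1 and 0.447 for Bmpr1a.

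In liver 49 of the list were tested. With age 8 rose and 6 fell (median -0.05 against 0.00 over all loci), where 7.93% of all loci tested rose and 8.68% fell. Hmox1, the haem oxygenase of iron recycling, rose from 1.09 ± 0.203 to 1.69 ± 0.317 (0.58 ± 0.11 SE, adjusted p = 0.000338). The haemoglobin and haem scavengers Hp (0.49) and Hpx (0.41) rose as well, and Slc46a1, a folate transporter that also takes up haem (-0.88), Slc39a8, a zinc and iron importer (-0.41), and Glrx5 (-0.28) fell. The call of Hpx was lost with no filter (adjusted p = 0.0503), and that of Glrx5 with upper-quartile scaling (0.0551) and as deposited (0.0719). After RAD001, 7 rose and 2 fell (median 0.05 against -0.01), where 6.98% of all loci tested rose and 8.71% fell. With the 7SL covariate 1 rose and 1 fell, and 3 rose in the values as deposited and 4 with no filter. Among genes with a mean level of at least 1, Lrp1, the receptor for haem bound to hemopexin (0.56), Hp (0.43) and Tfr2 (0.33) had the largest rises, and Fbxl5, which marks iron regulatory protein 2 for breakdown, fell (-0.19, adjusted p = 0.0320; 0.0584 with the replicate block). The call of Hp was lost in the values as deposited (adjusted p = 0.0529), with no filter (0.0934), with only the 2 groups compared (0.0734) and with the 7SL covariate (0.0668), and that of Fbxl5 with scaling on loci of at least 1 (0.0663), upper-quartile scaling (0.0502) and the 7SL covariate (0.113).

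In gastrocnemius 39 were tested. With age 9 rose and 15 fell (median -0.08 against -0.00 over all loci), where 16.2% of all loci tested rose and 19.2% fell. In the values as deposited 3 of the list fell with age. Blvrb, a biliverdin reductase of red cells and macrophages, rose from 0.959 ± 0.124 to 1.82 ± 0.366 (0.84 ± 0.08 SE, adjusted p = 4.02e-09). Hmox2 (0.26) and Aco1 (0.24) also rose. Hfe2, the hemojuvelin gene that is abundant in muscle, fell from 29.4 ± 2.24 to 19.1 ± 3.83 (-0.65 ± 0.09 SE, adjusted p = 1.85e-06). Slc25a28, mitoferrin 2, fell too (-0.38). After RAD001, 0 rose and 2 fell (median -0.00 against -0.00), where 1.49% of all loci tested rose and 1.67% fell. Blvrb fell from 1.82 ± 0.366 to 1.37 ± 0.132 (-0.37 ± 0.09 SE, adjusted p = 0.0227). As deposited the change of Blvrb was -0.43 (adjusted p = 0.102). The other gene that fell was Slc46a1.

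Genes whose log2 levels ran most like each of the 9 over the 28 libraries of its tissue of highest level are given as a description, since the libraries share group and scaling. Tfrc in gastrocnemius ran most like Amd1 (Pearson r = 0.96), Ugp2 (0.95) and Rilpl1 (0.94) among 2652 other loci. Slc11a2 in kidney ran most like Slc22a6 (0.94), Slc26a1 (0.92) and Ap1b1 (0.90) among 4244, of which Slc22a6 is on the proximal tubule list. Cp in liver ran most like C4bpa (0.92), C9 (0.89) and Fgl1 (0.89) among 2978, genes of secreted liver proteins. Slc40a1 in liver ran most like Npc2 (0.89), and Hfe like Mbl2 (0.88). Hamp ran most like Gnai2 (0.79) and Cebpb (0.78), the latter a C/EBP factor gene. The highest r was 0.82 for Fth1 in kidney (Fis1), 0.74 for Ftl1 in kidney (Ralb) and 0.70 for Tf in liver (RGD1305807).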

How the data were processed

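RNA of 84 libraries was measured. STAR 2.4.5a and rn5 are named in the submitters' processing notes, and how reads were summarised is not stated there. What the authors deposited is a signal, the read coverage per base of each locus, and not counts: in 58 to 152 loci of up to 130 bp per library, 100% of values times their length (on a 10 bp grid, tolerance 0.0001) came out as whole steps, and the step size gave the relative depth. Read totals are not given, so no counting intervals were formed. Locus coordinates are in rn5.

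A locus was tested in a tissue where 8 or more of its libraries reached 0.1. Scaling used trimmed means of log ratios (30% off each side) over loci above 0 in every library. This set of loci replaced a first choice, loci of at least 1, after results of both were seen; the first choice is given as an alternative. log2(scaled coverage + 0.1) was fitted with limma 3.58.1 (trended eBayes) in R 4.3.3, with 3 group means over 28 libraries and 25 residual degrees of freedom. Joint fits gave young tissue differences and tissue-by-group terms. Intervals are at 95%. The R package data.table (1.17.8), Python 3.11.15, NumPy 2.4.6, pandas 2.3.3 and matplotlib 3.10.9 were used. Promoters are RefSeq's, in GRCr8.

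The 9 genes, the lists and the tests were chosen with earlier results of these data known. All 9 were described; of the pathway list the 3 largest called rises and falls per tissue and comparison with a mean of at least 1 were named, except 1 that is not reported here, and for likeness the genes with the highest r of loci with a mean of at least 1, up to 3. Marker lists of hepatocyte, muscle fibre and proliferation genes served as checks: of 10 proliferation markers 4 were tested in kidney, where 1 rose with age and 2 fell after RAD001, and 2 each in liver and gastrocnemius, where 0 were called in liver and 1 rose with age in gastrocnemius; 5 of 10 hepatocyte markers fell in aged liver and 3 in treated liver, and 6 of 10 muscle fibre markers fell in aged gastrocnemius and 1 rose after RAD001. On simulated data made by shuffling residuals, the age fits recovered 33, 41 and 40 of 50 loci changed 1.25-fold in kidney, liver and gastrocnemius (10377, 8932 and 8765 loci), and 49, 50 and 50 at 2-fold, with 13, 8 and 18 false calls. The share of loci changed there was far smaller than the share called in the real age fits. These counts therefore need not hold for the real data. Alternatives covered scaling, filter, pseudocount, replicate block, groups in the fit, the 7SL level and each library left out. Replicate numbers were not used to pair libraries in the main fits. Not every same-numbered pair within a tissue correlated above 0.1. Such pairs come from different groups, so this cannot show whether equal numbers share a rat or a batch. The scaling factors of odd-numbered libraries lay above all even-numbered ones in each gastrocnemius group and in treated kidney. The lowest odd against highest even factor was 1.009 and 0.888 in young, 1.06 and 1.03 in aged and 1.03 and 0.933 in treated gastrocnemius. In treated kidney it was 1.06 and 0.889. Odd and even numbers overlapped in the other groups, and treated groups hold fewer even-numbered libraries. What this split reflects was not tested.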

Additional observations from a re-analysis of the deposited data

Results flagged for a closer look

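Of 75 groups of a gene, tissue and treatment examined, 3 had a library that stood apart from the others by Dixon's criterion on log2(scaled coverage + 0.1), which chance meets in about 1 group in 20. Hamp was lowest in young liver replicate 4, at 14.4, with 26.8 in the next library. It was lowest in aged liver replicate 7, at 13.6, with 25.4 in the next; without that library the change after RAD001 was 0.50. Hfe was highest in young kidney replicate 9, at 0.160, with 0.114 in the next.

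The change with age differed between kidney and liver, as kidney minus liver on the log2 scale, for Hfe (0.96, adjusted p = 7.86e-08), Slc11a2 (-0.50, adjusted p = 5.39e-06), Fth1 (-0.40, adjusted p = 0.000508), Tfrc (-0.70, adjusted p = 0.00146), Slc40a1 (-0.34, adjusted p = 0.00957), Tf (0.52, adjusted p = 0.0230) and Cp (0.62, adjusted p = 0.0279). As gastrocnemius minus kidney it differed for Tfrc (-1.44, adjusted p = 3.34e-10), Ftl1 (1.001, adjusted p = 1.43e-07), Hfe (-0.71, adjusted p = 2.52e-05), Slc11a2 (0.33, adjusted p = 0.00191), Cp (-0.79, adjusted p = 0.00374) and Tf (-0.45, adjusted p = 0.0487). The Tf difference was not called as deposited (adjusted p = 0.166) or with pseudocount 0.01 (adjusted p = 0.0605). As gastrocnemius minus liver it differed for Tfrc (-2.14, adjusted p = 5.07e-17), Fth1 (-0.50, adjusted p = 1.20e-05) and Ftl1 (0.76, adjusted p = 5.40e-05).

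The change after RAD001 differed between kidney and liver, as kidney minus liver, for Slc40a1 (0.48, adjusted p = 0.000577), Tfrc (0.73, adjusted p = 0.00176) and Cp (-0.75, adjusted p = 0.00994). As gastrocnemius minus kidney it differed for Slc40a1 (-0.37, adjusted p = 0.00878), Fth1 (-0.31, adjusted p = 0.0140), Cp (0.71, adjusted p = 0.0185) and Tfrc (-0.48, adjusted p = 0.0455). These terms come from limma's joint fit.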

How the results depend on the processing

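Of 150 log2 changes of the 9 genes, 133 kept their direction and side of the threshold with scaling on loci of at least 1 (an alternative added after seeing the data), 149 with median-of-ratios scaling, 141 with upper-quartile scaling, 135 as deposited, 149 with pseudocount 0.01 and 148 with pseudocount 0.5; so did 99 of 102 with no filter, 86 of 87 with the stricter filter (1 or more in 8 libraries), 73 of 73 with only the 2 groups compared, 62 of 75 with the 7SL covariate and 2041 of 2100 with a library left out. Changes of sign that were called in neither fit are not counted as reversals. As deposited, 2 differences between young tissues reversed in sign. These were Tfrc in kidney against liver (0.41, adjusted p = 0.00288) and Hfe in gastrocnemius against kidney (-0.074, adjusted p = 0.369), of which the reversed Hfe value was not called.

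The number of the 9 genes called moved as follows; the cause was not tested. After RAD001 in kidney (3) it was 5 with scaling on loci of at least 1 and 0 with the 7SL covariate. For treated against young kidney (7) it was 4 as deposited and 2 with the 7SL covariate. After RAD001 in liver (3) it was 1 with no filter, where more loci entered the adjustment, and 1 with the 7SL covariate. The RAD001 difference of gastrocnemius minus kidney (4) gave 2 with scaling on loci of at least 1 and 2 as deposited, and the age difference of gastrocnemius minus liver (3) gave 5 with pseudocount 0.5.

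With 1 library left out the counts ranged, for age, RAD001 and treated against young, from 6 to 7, 3 to 4 and 4 to 7 in kidney, 4 to 4, 1 to 4 and 4 to 5 in liver, and 6 to 7, 0 to 1 and 5 to 6 in gastrocnemius. The count of 1 in liver came without aged replicate 4, 6, 7 or 8 or treated replicate 2, 6 or 7. The call of Tfrc in treated liver was lost without aged replicate 2, 4, 6, 7, 8 or 9 or treated replicate 2, 3, 5, 6, 7 or 8. For treated against young kidney, Fth1 lost its call in 12 of 28 such fits, Ftl1 in 5 and Hfe in 2, and the count of 4 came without treated replicate 5.

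The replicate block gave 6, 3 and 7 genes in kidney, 4, 2 and 4 in liver and 6, 0 and 5 in gastrocnemius; it gave 8, 8 and 9 between young tissues. It changed 1 call of the 9 genes, Hamp after RAD001 in liver (0.57, adjusted p = 0.0593), and with Fbxl5 and Smad1 2 of the pathway genes named. A replicate block across tissues changed 0 of 48 differences; same-numbered treated kidneys and livers correlated above 0.1 in 8 of 8 pairs, a hint from the data and not from the labels.

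Scaling moved the balance of all called loci. The share that rose with age in kidney was 42.8%, against 74.8% with scaling on loci of at least 1, 65.3% with upper-quartile scaling and 62.8% as deposited; after RAD001 it was 54.0% against 23.7%, 30.9% and 39.2%. In liver it was 47.8% with age against 61.6% with scaling on loci of at least 1 and 66.6% as deposited, and 44.5% after RAD001 against 61.3%, 57.9% with upper-quartile scaling and 28.9% as deposited. In gastrocnemius it was 45.9% with age against 69.4% and 85.9%, and 47.1% after RAD001 against 64.4% and 9.09%, the last of 11 loci. For treated against young it was 46.6% in liver against 66.9% and, with upper-quartile scaling, 60.6%; 46.6% in gastrocnemius against 73.7% and, as deposited, 73.4%; and 43.2% in kidney against 33.1% with the 7SL covariate. The median of all loci moved by 0.11 in kidney with age under scaling on loci of at least 1; relative to it Cp stood at 1.31, Tfrc at -0.47 and Slc11a2 at -0.42.

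Depth limits low genes: Hamp was at 0 in 5 to 8 libraries of each kidney and gastrocnemius group, and the lowest Hfe libraries in both tissues lay below the filter value of 0.1.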
